A study of Mus musculus with 6 samples.

Results

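The amino acid transporter genes studied here are the 60 measured genes of the solute carrier families Slc1, Slc3, Slc6, Slc7, Slc36, Slc38 and Slc43, chosen by gene symbol alone from 25206 probe sets, each of which stands for 1 gene. The 60 genes divide into 7 of the Slc1 family, 2 of Slc3, 18 of Slc6, 15 of Slc7, 4 of Slc36, 11 of Slc38 and 3 of Slc43. RNA came from mouse bone marrow-derived macrophages (cells matured from marrow precursors in culture), and each RNA sample was read on 1 single-colour Affymetrix array. The 3 JG-98 samples had been given 0.3 micromole of JG-98, an inhibitor of Hsp70 chaperones, for 16 hours. For the 3 control samples no dose or time is given. The labels name no volume for the dose, no vehicle for the controls, and neither the strain, the age nor the number of mice. The comparison asks how blocking Hsp70 alters macrophage gene expression.

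Amino acids cannot cross membranes unaided, and the solute carriers that move them fall into exchangers, which trade one amino acid for another, and carriers that accumulate amino acids by using sodium or proton gradients. Several members of the Slc7 family are light chains that reach the cell surface only when bound to a heavy chain of the Slc3 family. When amino acids run short or another stress phosphorylates the initiation factor eIF2, the transcription factor ATF4 is made and raises the transcription of several amino acid transporter and amino acid synthesis genes. In macrophages such transport supplies, among others, arginine for nitric oxide, cystine and glycine for glutathione, and glutamine.

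Values are log2 expression, on which a difference of 1 is a 2-fold change. The array medians lay between 4.08 and 4.24. JG-98 replicate 3 stood apart, with correlations of 0.992 to 0.993 to the other arrays over all probe sets, while the other 5 arrays correlated with each other at 0.995 to 0.996. On that array dim probe sets read high: for the 40 transporter genes whose control mean was under 5, the median deviation from the control mean was 0.24 on JG-98 replicate 3, against -0.02 and -0.05 on JG-98 replicates 1 and 2 and -0.06 to 0.03 on the 3 control arrays. Over all 15032 probe sets that dim, the deviation on JG-98 replicate 3 was 0.10. Macrophage markers were bright, with control means of 8.34 or more for the 10 measured of 12. Their mean level was 10.22 to 10.28 on JG-98 arrays and 10.32 to 10.35 on control arrays. Of the 60 measured markers of 9 other cell types, 58 had control means under 5, the exceptions being Kdr and Atp6v0d2. Their mean level was 3.23 to 3.42 on JG-98 arrays and 3.21 to 3.31 on control arrays, and their part in the results was not tested.

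Within these families, transcripts of 5 genes were higher on every JG-98 array than on any control array, with mean differences above 0.5 on the log2 scale. In such bulk RNA, a changed share of cells and a changed amount of RNA per cell cannot be told apart. They encode the glycine carrier Slc6a9, the cystine and glutamate exchanger Slc7a11, the large neutral amino acid exchanger Slc7a5, the small neutral amino acid exchanger Slc1a4 and the cationic amino acid carrier Slc7a1. Only Slc6a9 passed the test over all probe sets, which was limma's moderated test with a Benjamini-Hochberg adjusted p under 0.05. Over all 25206 probe sets 0.0397% were called, 0.0317% higher and 0.00793% lower, and among the 60 transporter genes 1 was called higher and 0 lower. At an unadjusted p under 0.05 in limma, 8 of the 60 were higher and 1 was lower, where 3.84% of all probe sets were higher and 4.48% lower. The 8 became 5 without control replicate 3, and the 1 became 0 without any 1 control and 3 without JG-98 replicate 3. Every JG-98 value lay above every control value in 11 of the 60 and below every control value in 5 (7.12% and 8.44% of all probe sets).

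Promoter sequences are shown for some of the genes on which the results turn, because the DNA element bound by ATF4 with a C/EBP partner is known from several amino acid response genes. RefSeq promoters of build GRCm38.p6, which run from 250 bases before to 50 bases after a start site, were matched for 43 of the 60 genes. The element was searched as TGATGNAA, where N is any base, on both strands. It occurs in 3.97% of all 32851 promoter windows and in at least 1 window of 4.51% of all 27025 genes with a window. Among the 43 transporter genes it occurs in 4 (9.3%), namely Slc7a11, Slc1a4, Slc7a7 and Slc6a21. Of the 5 genes with differences above 0.5, Slc7a11 and Slc1a4 have matches, Slc6a9 has 0 in its 3 windows, Slc7a1 has 0 in its 2 windows, and Slc7a5 was not matched to a window. The following windows are written 5′ to 3′ on the strand of the gene in lower case, with matches in capitals, and the start site follows base 250.
Slc7a11, chr3:50443564-50443863, minus strand: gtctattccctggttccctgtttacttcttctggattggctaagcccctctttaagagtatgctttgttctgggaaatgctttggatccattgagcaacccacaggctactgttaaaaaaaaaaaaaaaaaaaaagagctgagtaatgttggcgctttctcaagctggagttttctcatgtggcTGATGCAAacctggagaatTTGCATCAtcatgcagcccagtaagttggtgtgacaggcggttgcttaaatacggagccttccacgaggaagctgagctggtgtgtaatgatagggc
Slc1a4, chr11:20332664-20332963, minus strand: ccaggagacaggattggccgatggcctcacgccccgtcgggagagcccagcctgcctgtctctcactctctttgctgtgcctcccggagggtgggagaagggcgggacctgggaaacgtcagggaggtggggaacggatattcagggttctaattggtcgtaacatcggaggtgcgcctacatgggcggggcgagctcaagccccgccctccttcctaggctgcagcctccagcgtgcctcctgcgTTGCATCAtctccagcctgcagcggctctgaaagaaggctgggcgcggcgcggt
Slc7a7, chr14:54417895-54418194, minus strand: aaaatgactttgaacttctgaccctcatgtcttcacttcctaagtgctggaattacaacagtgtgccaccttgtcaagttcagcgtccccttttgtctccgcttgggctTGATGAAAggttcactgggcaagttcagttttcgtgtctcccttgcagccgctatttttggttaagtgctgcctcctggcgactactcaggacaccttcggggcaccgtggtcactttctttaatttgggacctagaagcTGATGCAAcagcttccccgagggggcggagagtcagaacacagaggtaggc
Slc6a9, chr4:117835008-117835307, plus strand: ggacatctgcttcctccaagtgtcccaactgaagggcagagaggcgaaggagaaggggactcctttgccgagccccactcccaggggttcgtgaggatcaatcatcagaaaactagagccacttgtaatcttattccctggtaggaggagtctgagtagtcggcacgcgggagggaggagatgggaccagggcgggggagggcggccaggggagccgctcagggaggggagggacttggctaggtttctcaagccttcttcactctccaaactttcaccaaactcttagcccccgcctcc

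The Slc7a11 window holds 2 matches in opposite orientation, at bases 185 to 192 and 204 to 211. The printed Slc7a7 window also holds 2, and 0.07% of all windows hold 2 or more. The Slc1a4 match, at bases 247 to 254, spans the start site. Slc7a7 is shown as a gene with the same letters but lower mean expression on the JG-98 arrays. The printed one of its 5 windows, picked for holding the most matches, has them at bases 110 to 117 and 250 to 257. Some of its other windows hold 0. Slc6a9 has 3 windows, of which the one farthest upstream is printed, and none of them holds these letters. A match is a string of letters and was not tested as a binding site.

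Slc6a9 encodes GlyT1, a sodium-driven carrier that takes up glycine. It read 5.16, 5.33 and 5.22 on JG-98 replicates 1 to 3, against 4.20, 4.10 and 3.90 on control replicates 1 to 3. The groups were well apart, and JG-98 replicate 3 lay between the other JG-98 arrays. Slc6a9 averaged 5.24 ± 0.09 with JG-98 and 4.07 ± 0.15 in controls (SD, n = 3 each), so it rose by 1.17 ± 0.098 on the log2 scale (SE, limma adjusted p = 0.0261). Its control mean lies just below the median of all probe sets at 4.11, where a level cannot be told from background, so no fold is given. With any 1 of the 6 arrays left out its difference was 1.09 to 1.24 and the call was lost (limma adjusted p = 0.119 to 0.248).

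Slc7a11 encodes xCT, the light chain that imports cystine in exchange for glutamate and so feeds glutathione synthesis. It read 5.48, 5.59 and 4.86 on the JG-98 arrays, against 3.66, 3.85 and 3.84 on the control arrays. Its JG-98 values did not overlap the controls, but JG-98 replicate 3 was clearly below the other JG-98 arrays. The difference was 1.53 ± 0.19 on the log2 scale, and it did not pass the test (limma adjusted p = 0.126). Without JG-98 replicate 3 the difference was 1.75 and passed (limma adjusted p = 0.0225). With any other array left out it was 1.39 to 1.56 and did not pass (limma adjusted p = 0.409 to 0.622). Its control mean of 3.78 also lies below the median of all probe sets, so no fold is given here either.

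Slc7a5 encodes LAT1, the light chain that brings in leucine and other large neutral amino acids. It read 7.998, 7.79 and 7.86 on the JG-98 arrays, against 7.14, 6.92 and 6.94 on the control arrays. All 3 JG-98 values lay above the controls by more than the range of either group. Its difference was 0.88 ± 0.093 (1.85-fold, limma adjusted p = 0.089, 95% interval 0.66 to 1.11). Left-out arrays moved the difference between 0.83 and 0.95, and it passed in none of these fits (limma adjusted p = 0.177 to 0.562).

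Slc1a4 encodes ASCT1, which exchanges alanine, serine and cysteine. It read 5.10, 4.73 and 5.08 on the JG-98 arrays and 4.39, 3.89 and 4.23 on the control arrays, a difference of 0.80 ± 0.16 (limma adjusted p = 0.294). Its spread was wide in both groups, though they did not overlap. The control mean of Slc1a4, 4.17, lies just above the median of all probe sets at 4.11, so it may not stand clear of background. Its relative Slc1a5, the ASCT2 carrier that imports glutamine, read 7.89, 7.63 and 7.75 with JG-98 and 7.73, 7.70 and 7.53 in controls, and these groups overlapped (difference 0.10 ± 0.095, 95% interval -0.12 to 0.33).

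**Figure D1:**
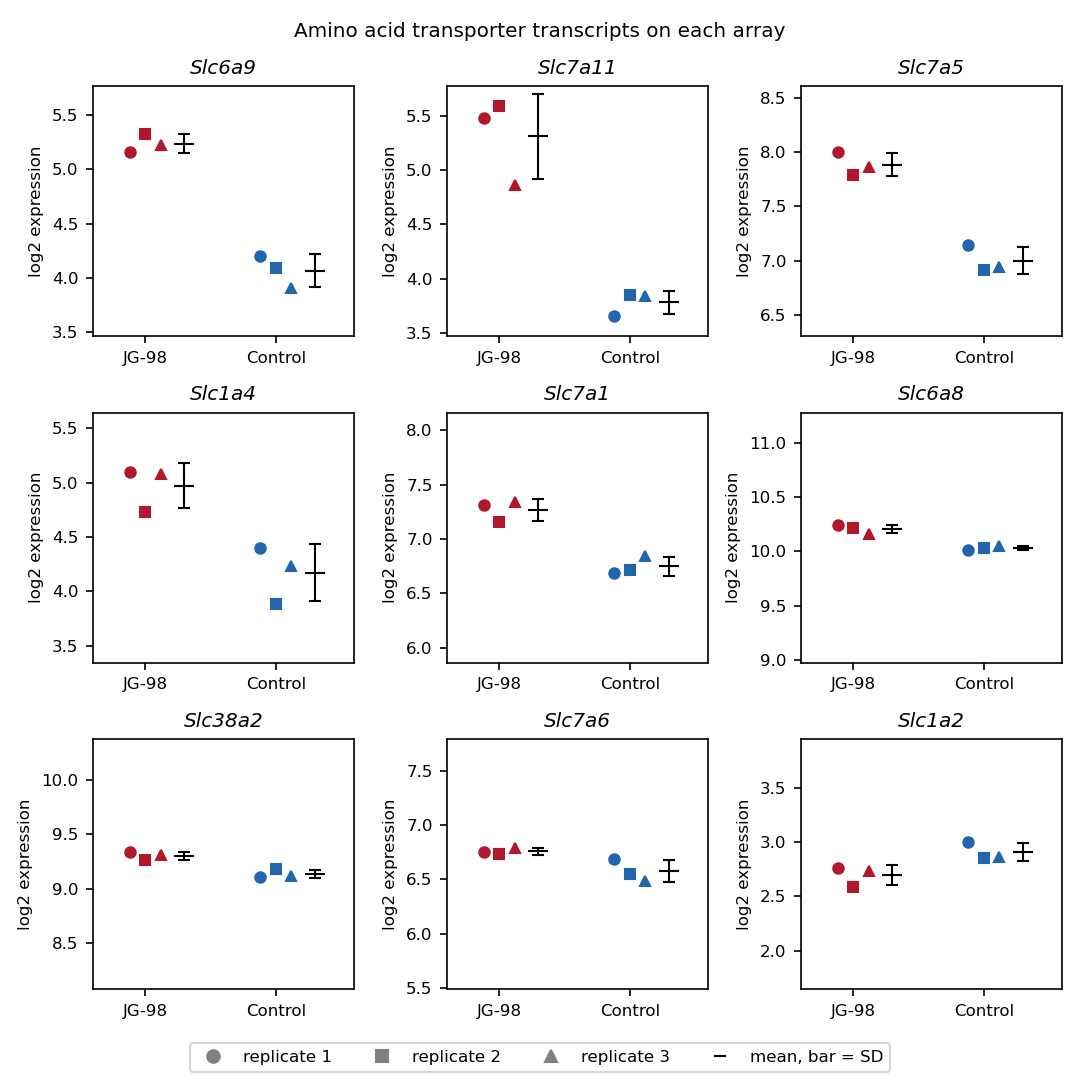
Each panel plots the log2 expression of 1 transporter gene on every array, with JG-98 at the left and control at the right; symbols mark replicates, the dash with bar is the mean ± SD (n = 3), and every panel spans the same height. The group means differ by more than 0.5 for Slc6a9, Slc7a11, Slc7a5, Slc1a4 and Slc7a1, though Slc1a4 has a wide spread in both groups. They are close for Slc6a8, Slc38a2, Slc7a6 and Slc1a2, which differed by at most 0.21 in size.

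Among the carriers of arginine and lysine, Slc7a1, the widely expressed CAT1, read 7.32, 7.15 and 7.34 on the JG-98 arrays, against 6.69, 6.71 and 6.84 on the control arrays. The groups were apart, at a difference of 0.52 ± 0.083 (1.44-fold, limma adjusted p = 0.207). Slc7a2, the CAT2 carrier that supplies arginine in activated macrophages, read 6.74, 6.67 and 6.61 with JG-98 and 6.68, 6.48 and 6.49 in controls. Those groups overlapped, and the difference of 0.12 ± 0.083 had a 95% interval of -0.08 to 0.32. Slc7a3, the CAT3 carrier, was dim in both groups, with means of 2.56 and 2.55.

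The heavy chain that carries xCT and LAT1 to the surface is Slc3a2, also called 4F2hc or CD98. It read 10.70, 10.74 and 10.54 on the JG-98 arrays, against 10.60, 10.51 and 10.53 on the control arrays, so the groups overlapped on JG-98 replicate 3. Its difference was 0.12 ± 0.079 (limma adjusted p = 0.76, 95% interval -0.07 to 0.31). The other heavy chain gene, Slc3a1 (rBAT of kidney and gut), was dim at 3.64 with JG-98 and 3.53 in controls.

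The difference of each light chain was set against that of Slc3a2 within the same arrays, for the 6 light chains known to pair with it. Relative to Slc3a2, Slc7a11 was higher by 1.41 ± 0.18 and Slc7a5 by 0.77 ± 0.098 (SE, n = 3 each), with no overlap between groups. Both had an exact two-sided permutation p of 0.1, the smallest that 3 against 3 samples allow, and 0.3 after Benjamini-Hochberg adjustment over the 6 comparisons. The value of Slc7a11 rests on a control level that cannot be told from background. Slc7a6 (y+LAT2), Slc7a7 (y+LAT1) and Slc7a8 (LAT2) differed from Slc3a2 by 0.07 ± 0.089, -0.26 ± 0.12 and -0.09 ± 0.083 (exact permutation p = 0.6, 0.2 and 0.3), and their groups overlapped. Slc7a10 differed from Slc3a2 by -0.05 ± 0.39, also with overlap (exact permutation p = 1). These comparisons were chosen with the values known.

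Of those light chains, Slc7a8, which had the highest control mean of all 60 genes, read 11.54, 11.48 and 11.53 on the JG-98 arrays and 11.47, 11.48 and 11.52 on the control arrays. The groups overlapped, and the 95% interval of its difference was -0.12 to 0.17. Slc7a6, which exchanges arginine for glutamine, read 6.75, 6.73 and 6.79 with JG-98 and 6.69, 6.55 and 6.49 in controls, a difference of 0.18 ± 0.075 (limma adjusted p = 0.588) with no overlap. Slc7a7, which does the same exchange in macrophages and epithelia, read 6.37, 6.57 and 6.47 with JG-98 and 6.50, 6.67 and 6.68 in controls. Those groups overlapped, at -0.15 ± 0.087.

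The remaining Slc7 genes were dim, with control means of 1.498 to 4.14. Slc7a9, the partner of Slc3a1 in kidney, differed by 0.03 ± 0.075 and Slc7a13, a light chain of kidney, by -0.15 ± 0.099. Slc7a10, the asc-1 exchanger of small neutral amino acids, read 3.86, 3.92 and 4.84 with JG-98 against 4.05, 4.21 and 4.15 in controls. Its difference of 0.07 ± 0.26 therefore rested on JG-98 replicate 3 and was -0.25 without that array. The other 4, Slc7a4, Slc7a12, Slc7a14 and Slc7a15, differed by -0.17 to 0.21 with overlapping groups.

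**Figure D2:**
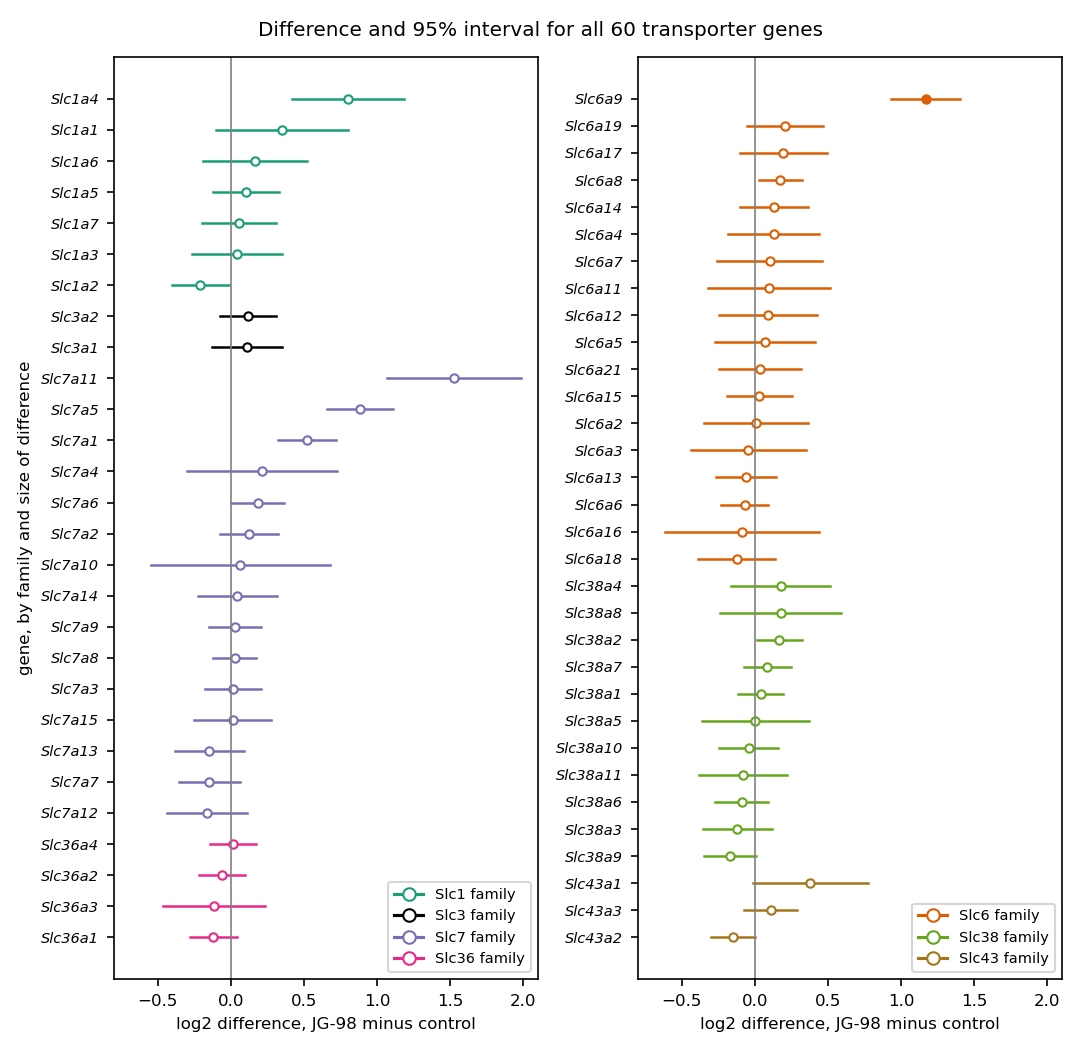
The log2 difference, JG-98 minus control, is drawn for all 60 genes by family, as a point with its 95% interval from limma; a filled point marks an adjusted p under 0.05. Slc6a9 alone is filled, and the intervals of Slc7a11, Slc7a5, Slc1a4 and Slc7a1 also lie wholly above 0.3.

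In the Slc1 family the 5 carriers of glutamate and aspartate, which are best known from neurons and glia, were dim, with control means of 2.36 to 4.35. Slc1a2, the GLT-1 carrier, was the 1 transporter gene lower at an unadjusted p under 0.05. It read 2.77, 2.59 and 2.74 with JG-98 and 3.00, 2.85 and 2.86 in controls, without overlap, at -0.21 ± 0.081 (limma adjusted p = 0.571). Slc1a1, the EAAC1 carrier of glutamate and cysteine, read 3.59, 3.52 and 4.11 with JG-98 and 3.18, 3.63 and 3.36 in controls, so the groups overlapped and JG-98 replicate 3 was the high array. Slc1a3, Slc1a6 and Slc1a7 differed by 0.04 to 0.16 with overlapping groups.

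The Slc6 family holds sodium- and chloride-driven carriers, and apart from Slc6a9 its 2 bright members carry taurine and creatine. Slc6a6, the taurine carrier, had the highest control mean of the family. It read 10.85, 10.73 and 10.86 with JG-98 and 10.86, 10.88 and 10.90 in controls, and all JG-98 values lay slightly below, at -0.07 ± 0.067 (95% interval -0.23 to 0.09). Slc6a8, the creatine carrier, read 10.24, 10.21 and 10.16 with JG-98 and 10.01, 10.03 and 10.05 in controls. These groups did not overlap, and the difference was 0.17 ± 0.061 (limma adjusted p = 0.523).

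The other 15 Slc6 genes had control means of 2.40 to 4.996, differences of -0.12 to 0.21 and overlapping groups. They include the second glycine carrier, Slc6a5 (GlyT2 of inhibitory neurons), which differed by 0.07 ± 0.14. The monoamine carriers Slc6a2, Slc6a3 and Slc6a4, for noradrenaline, dopamine and serotonin, differed by -0.04 to 0.13. The carriers of GABA and betaine, Slc6a11, Slc6a12 and Slc6a13, differed by -0.06 to 0.10.

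In the Slc38 family, Slc38a2 encodes SNAT2, a sodium-driven carrier of alanine and glutamine that is known to respond to amino acid shortage, and it had the highest control mean of the family. It read 9.34, 9.27 and 9.31 on the JG-98 arrays, against 9.11, 9.18 and 9.12 on the control arrays. The groups were apart but the difference was small, at 0.17 ± 0.063 (1.12-fold, limma adjusted p = 0.55). Its close relative Slc38a1 differed by 0.04 ± 0.065 with overlapping groups (95% interval -0.11 to 0.19). The dim Slc38a3, Slc38a4, Slc38a5, Slc38a8 and Slc38a11 differed by -0.12 to 0.18, with overlapping groups.

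Carriers of the lysosomal membrane lay on both sides of 0. Slc38a9, which senses arginine in the lysosome for the growth kinase mTORC1, read 7.97, 7.93 and 7.80 with JG-98 and 8.04, 8.14 and 8.03 in controls, all lower, at -0.17 ± 0.075 (limma adjusted p = 0.629). Slc36a1, a proton-coupled exporter of small amino acids from lysosomes with the highest control mean of its family, read 8.32, 8.32 and 8.38 with JG-98 and 8.44, 8.54 and 8.40 in controls, all lower by a little (-0.12 ± 0.068). Slc38a7 was higher on every JG-98 array, at 0.09 ± 0.068. The other Slc36 genes, Slc36a2, Slc36a3 and Slc36a4, differed by -0.11 to 0.01, and Slc38a6 and Slc38a10 by -0.09 and -0.04, all with overlapping groups.

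All 3 genes of the Slc43 family had separate groups, in both directions, and 0 had an unadjusted p under 0.05 in limma. Slc43a2 and Slc43a3 had control means above 7, where 13.4% of all probe sets were apart upward and 18.9% downward. Under 5, the level of Slc43a1, these shares were 4.28% and 3.66%. Slc43a2, the LAT4 uniporter of large neutral amino acids and the brightest of the family, read 9.96, 9.89 and 9.89 with JG-98 against 10.03, 10.07 and 10.09 in controls, at -0.15 ± 0.063 (limma adjusted p = 0.609). Slc43a1, the LAT3 uniporter, was dim and read 2.99, 2.96 and 3.52 with JG-98 against 2.91, 2.74 and 2.67 in controls, with JG-98 replicate 3 well above the rest (0.38 ± 0.16). Slc43a3, which carries purine bases and not amino acids, was at 0.11 ± 0.076.

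By family, the median difference was 0.10 for Slc1, 0.11 for Slc3, 0.08 for Slc6, 0.04 for Slc7, -0.09 for Slc36, 0.00 for Slc38 and 0.11 for Slc43, against 0.00 over all probe sets. The median over the 60 genes was 0.05, with 42 differences above 0 and 18 below, against 12670 and 12536 over all probe sets. Of these, 29 above and 11 below came from the 40 genes with a control mean under 5, where JG-98 replicate 3 read high. The median over the 60 genes was 0.00 without JG-98 replicate 3, 0.09 without control replicate 2 and 0.10 without JG-98 replicate 2. Apart from the 5 genes above 0.5, differences lay between -0.21 and 0.38.

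By control level, 40 genes had a control mean under 5, 4 lay between 5 and 7 and 16 at 7 or above, with Slc7a5 at the border (7.0002). Of the 40 dim genes, 3 were higher and 1 lower at an unadjusted p under 0.05 in limma (2.77% and 2.38% of all probe sets that dim). The 3 were Slc6a9, Slc7a11 and Slc1a4. Slc7a1 and Slc7a6 were the 2 of 4 higher at middle levels, where 5.46% of all probe sets were higher and 6.64% lower. Slc7a5, Slc6a8 and Slc38a2 were the 3 of 16 higher among bright genes, where 5.38% of all probe sets were higher and 8.36% lower. At both of those levels 0 transporter genes were lower. Of the bright genes, 5 had all JG-98 values above and 4 all below the control values (13.4% and 18.9% of all probe sets that bright). The median SE of a difference was 0.13 for the dim genes and 0.068 for the bright ones, so a small difference was resolved less well among dim genes. The brightest carriers, Slc7a8, Slc6a6, Slc3a2, Slc43a2 and Slc6a8, differed by -0.15 to 0.17, and differences above 0.5 stood at control means of 3.78 to 7.0002. An array's brightness also depends on its probes, so the order of levels between genes is not an order of abundance.

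**Figure D3:**
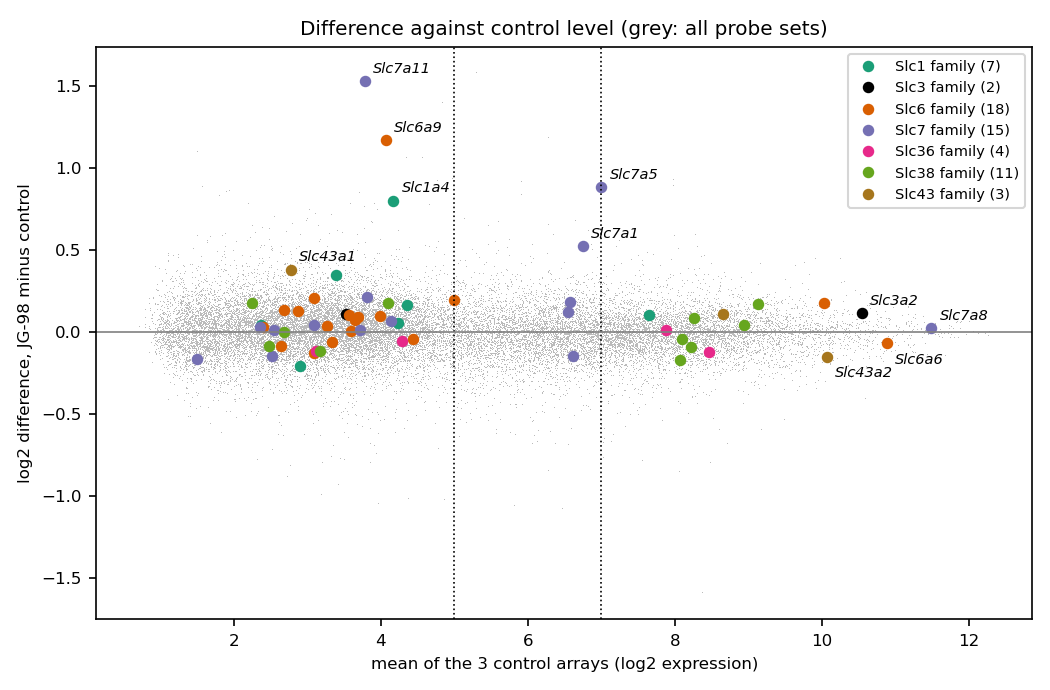
The log2 difference (JG-98 minus control) is plotted against the mean of the 3 control arrays for the 60 genes, coloured by family, over all probe sets in grey; dotted lines mark levels of 5 and 7. The 5 genes above 0.5 lie left of or on the line at 7, and genes further right lie between -0.17 and 0.17.

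Genes of the same pathway outside these families were read from fixed lists. Of 22 other amino acid transporters, including lysosomal, vesicular and mitochondrial ones, 0 passed in limma over all probe sets (median difference 0.02). At an unadjusted p under 0.05, 1 was higher and 2 lower, against 3.84% and 4.48% of all probe sets. With 1 array left out the counts among the 22 were 0 to 3 and 1 to 2, with 3 higher without control replicate 1. Without control replicate 3, and likewise without either of JG-98 replicates 1 and 2, 0 were higher and 1 lower, and without control replicate 2 there was 1 lower. The higher one was Slc17a7, a vesicular glutamate carrier, at 0.21 ± 0.075. The lower ones were Slc66a1, which exports cationic amino acids from lysosomes, at -0.25 ± 0.076, and Slc15a4, an endolysosomal carrier of histidine and peptides, at -0.19 ± 0.069.

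Of 24 genes of the amino acid response through GCN2 and ATF4, 4 rose and 0 fell (limma adjusted p under 0.05). Their median difference was 0.24. Over all probe sets, 0.0317% rose and 0.00793% fell by that test. The 4 were Trib3, Mthfd2, Asns and Nupr1. After median centring of each array 2 were called, Trib3 and Mthfd2, so the calls of Asns and Nupr1 were lost. Without JG-98 replicate 3 only Trib3 of these was called, and without any other array 0 were. At an unadjusted p under 0.05 in limma, 14 of the 24 were higher and 0 lower, against 3.84% and 4.48% of all probe sets. With 1 array left out 12 to 16 were higher, and 1 was lower without control replicate 2 or JG-98 replicate 3. The list was chosen with earlier results of these arrays known and is not independent evidence of its direction. Atf4 itself differed by 0.44 ± 0.088 (limma adjusted p = 0.294). Asns, which makes asparagine, had a difference of 0.92 ± 0.077. Whether these genes and the transporter genes share a regulator was not tested.

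Genes that use what the higher carriers bring in were also read. These lists share genes with the list of the GCN2 and ATF4 response, among them Chac1, Mthfd2 and Shmt2, so their counts are not separate results. Of 13 genes of cystine use and glutathione synthesis, 0 passed in limma over all probe sets (median difference 0.14). At an unadjusted p under 0.05, 4 were higher and 0 lower, against 3.84% and 4.48% of all probe sets. The 4 became 2 without control replicate 2, when the median was 0.09. These were Chac1, which degrades glutathione, at 0.77 ± 0.16, Gclm, a subunit of the enzyme for the first step of glutathione synthesis, at 0.30 ± 0.071, the glutathione reductase gene Gsr at 0.25 ± 0.081 and the thioredoxin reductase gene Txnrd1 at 0.20 ± 0.062. Of 17 enzymes of glycine, serine and one-carbon metabolism, the mitochondrial enzyme gene Mthfd2 rose by 0.89 ± 0.068 (limma adjusted p = 0.0261), a call lost without any 1 array. At an unadjusted p under 0.05, 5 of the 17 were higher and 1 lower, against 3.84% and 4.48% of all probe sets. The 5 became 3 without control replicate 2 or JG-98 replicate 2, and the 1 became 2 without JG-98 replicate 2. Among the 5 was Shmt2, which makes glycine from serine in mitochondria, at 0.26 ± 0.064. The lower one was Aldh1l1 at -0.34 ± 0.081.

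Of 34 genes of amino acid sensing by mTORC1, 0 passed in limma (median difference -0.02). At an unadjusted p under 0.05, 1 was higher and 4 lower, against 3.84% and 4.48% of all probe sets. The median control mean of the 34 was 7.28. Of all probe sets with a control mean of 7 or above, 5.38% were higher and 8.36% lower. The 4 lower genes of the list became 2 without control replicate 3 or JG-98 replicate 3. The higher one was Sesn2, a leucine-binding inhibitor of the pathway and an ATF4 target, at 0.28 ± 0.066. Sesn2 is also in the list of the GCN2 and ATF4 response. The lower ones were its relative Sesn1 at -0.33 ± 0.062, Castor2 of the arginine-sensing CASTOR proteins at -0.27 ± 0.071, the Rag GTPase gene Rragb and Flcn.

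**Figure D4:**
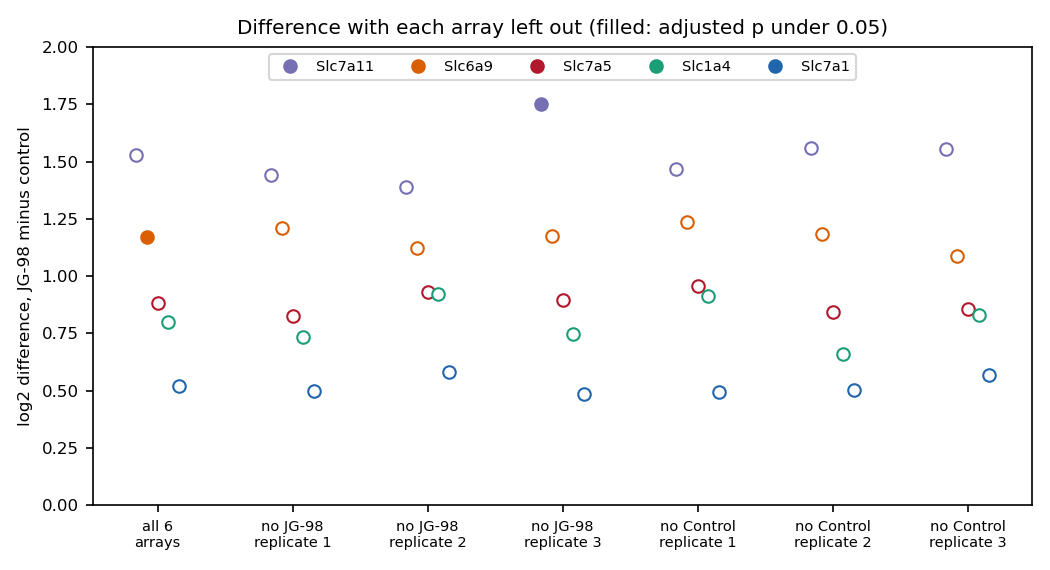
The log2 difference (JG-98 minus control) of the 5 transporter genes above 0.5 is plotted with all 6 arrays and with each array left out; filled points have a limma adjusted p under 0.05. Each gene stays above 0.45 in every column, Slc6a9 is filled only with all arrays and Slc7a11 only without JG-98 replicate 3, where its difference is 1.75.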

How the data were processed

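The deposited table holds the authors' log2 values for 6 arrays. The submitters' processing notes list RMA, affy and R 2.15.1 but give them no role. RMA, by its usual definition, subtracts background, quantile-normalizes arrays and compresses dim differences. No source used here gives a genome build. Symbols came from the platform annotation (1 for 23185 of 25206 probe sets, several for 0, none for 2021), and all 23185 matched RefSeq GRCm38.p6 by Entrez number.

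Genes, lists and tests were chosen with earlier results of these data known. Groups follow the labels. JG-98 was set against control in limma 3.58.1 under R 4.3.3 (lmFit, eBayes, two-sided, no covariate), adjusting over all probe sets by Benjamini-Hochberg. SEs of these differences are moderated, with 4 residual and 2.59 prior degrees of freedom. Those of the light chains relative to Slc3a2 are not moderated and come from the 3 values of each group. Nothing in the labels says that replicates were separate animals or cultures, so the p-values reflect sample-to-sample spread that may be technical, and 3 arrays per group limit precision.

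Genes named with values had an unadjusted p under 0.05 or the highest control mean of their family, or were heavy or light chains. Any others were chosen after their values were seen. Of each further list, genes passing the adjusted test and up to 4 with the smallest unadjusted p are named; Atf4 and Flcn stand outside this rule and were chosen after their values were seen. Other settings were median centring, quantile normalization, filters on dim probe sets, a trended or robust prior, array weights (statmod 1.5.0), a replicate block and each array left out.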

Additional observations from a re-analysis of the deposited data

How the results depend on the processing

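Over all probe sets, 10 were called with all arrays, 90 and 385 after filters that kept probe sets at or above the median level (4.12) or a level of 6, 254 with an intensity trend, 25 with array weights and 0 to 5 with 1 array left out. Transporter genes called higher numbered 4 of 30 and 2 of 20 after these filters, 5 with the trend and 3 with array weights. They numbered 0 to 1 with 1 array left out, against 1 with all arrays. Over all probe sets 49 of 12603 and 175 of 8064 were called higher after the filters. Of all 25206, 127 were with the trend, 17 with array weights and 0 to 4 with 1 array left out, against 8. In limma 0 transporter genes were called lower in any setting (0 to 4 at an unadjusted p under 0.05). The 4 transporter genes called after the filter at the median were Slc6a9, Slc7a5, Slc7a11 and Slc7a1. Of these, Slc6a9 and Slc7a11, with control means of 4.07 and 3.78, passed the filter only through their JG-98 values and are not supported by it. The trend added Slc6a8, and the filter at 6 removed Slc6a9 and Slc7a11 by their level. Groups apart upward numbered 11, and 8 after median centring, 7 after the filter at 6, which left 20 of the 60 genes, and 11 to 19 with 1 array left out (7.12%, 4.51%, 12.7% and 11.2% to 13.7% of all probe sets). Groups apart downward numbered 5, 3 after further quantile normalization and 5 to 11 with 1 array left out (8.44%, 8.53% and 11.9% to 16.7% of all probe sets). The median difference of 0.05 was 0.031 after median centring, 0.095 after the filter at the median, 0.019 with array weights and 0.00037 to 0.098 with 1 array left out. The median over all probe sets, 0.0008 with all arrays, was -0.019, -0.0069, -0.012 and -0.016 to 0.0085 in the same settings.

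The replicate numbers were not shown to pair the arrays: deviations of same-numbered arrays correlated at 0.10, -0.13 and 0.10, and JG-98 replicate 2 correlated best with control replicate 1. With the number as a replicate block, 0 probe sets and 0 transporter genes were called (smallest limma adjusted p = 0.221 over all probe sets and 0.265 among transporter genes, with 1855 probe sets at an unadjusted p under 0.05). Signs were followed for the 20 genes with an unadjusted p under 0.05, the highest control mean of their family or a heavy or light chain. Of these 20, 18 kept their sign in every setting. Signs of the other genes given with values were not followed across settings. Slc7a9, at -0.019 to 0.063 with 1 array left out, turned to -0.00035 without control replicate 1 and -0.019 without JG-98 replicate 2. Slc7a10, at -0.25 to 0.24 with 1 array left out, turned to -0.18 with array weights and -0.25 without JG-98 replicate 3. Of bright genes, 4 in place of 3 were higher in the top quartile of all probe sets. Binned by the mean of all 6 arrays, 1 gene in place of 2 was higher at levels of 5 to 7, because Slc7a1 moved to the bright group. For dim genes no detection call was used, so the signal over background is unknown.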
